A study of Homo sapiens with 4 samples.

Results

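The matrix proteases of the MMP and ADAMTS families and their TIMP inhibitors were followed through the late hematopoietic differentiation of human embryonic stem cells with and without a block of TGFβ signaling. Members were all rows of the deposited expression table whose symbol named a numbered MMP, ADAMTS or TIMP gene. The rule found 47 genes among 58365 rows, namely 24 MMP genes, 19 ADAMTS genes and 4 TIMP genes, each with 1 row. The rule itself uses symbols and no measured value, although this gene group was chosen with earlier results of these data known.

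RNA-seq was run on 4 libraries of H1 cells, a long-established line of human embryonic stem cells (hESCs), collected at day 8. Per the labels, all cells received activinA at 40 ng/ml with BMP4 at 50 ng/ml for 2 days, then VEGF at 40 ng/ml with bFGF at 50 ng/ml for 3 days, and the same 2 factors for the last 3 days. During these last 3 days, the cells of 2 libraries received SB431542, an inhibitor of the TGFβ type I receptor (SB), and the other two libraries were the DMSO controls, with replicate numbers 1 and 2 in each group. No genetic change is named for either group, and both come from 1 cell line. The study's methods describe collecting cells that carry CD31, a surface protein of endothelial and blood cells, while the labels do not mention this step. The study speaks of independent experiments in general, but nothing ties these replicates to separate cultures, so the p-values below measure only the spread between these libraries, which may be technical.

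MMPs are zinc-dependent endopeptidases that are made as inactive proenzymes and cut collagens, proteoglycans, growth factor carriers and cell surface proteins. ADAMTS proteases are secreted, carry thrombospondin repeats that hold them to the matrix, and cut proteoglycans, procollagens or von Willebrand factor. TIMPs are small secreted proteins that insert their amino end into the active site of these enzymes and block it. Endothelial cells use membrane-bound MMPs to open their basement membrane, and leukocytes use secreted gelatinases while they leave the marrow.

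Both protease families bind their zinc ion with 3 histidines in a short stretch of the catalytic domain, and the codons of this stretch are shown here because they tie the MMP and ADAMTS members together. Of the 43 proteases, 42 have a complete coding transcript in GENCODE release 29 (GRCh38) and 41 hold the stretch exactly once. The member without a coding transcript, MMP23A, is annotated as an unprocessed pseudogene. The search also required glutamate after the first histidine and glycine or asparagine midway between the second and the third. ADAMTS8 had no match, which does not show that it lacks the site. The sequences below run 5′ to 3′ over 33 coding bases, with the 3 histidine codons in capitals.

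MMP2: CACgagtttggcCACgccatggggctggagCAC

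MMP9: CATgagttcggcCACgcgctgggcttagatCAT

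MMP14: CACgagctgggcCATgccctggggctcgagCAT

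MMP28: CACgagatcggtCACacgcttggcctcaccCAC

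ADAMTS4: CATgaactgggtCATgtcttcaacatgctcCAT

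ADAMTS2: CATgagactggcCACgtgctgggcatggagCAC

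ADAMTS12: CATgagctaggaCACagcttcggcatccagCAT

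These stretches lie at chr16:55491827-55491859 on the plus strand (MMP2, exon 8 of 13), chr20:46012453-46012485 on the plus strand (MMP9, exon 8 of 13), chr14:22843283-22843315 on the plus strand (MMP14, exon 5 of 10) and chr17:35770167-35770199 on the minus strand (MMP28, exon 5 of 8). The ADAMTS stretches are each split by an intron, at chr1:161195613-161196180 (ADAMTS4, exons 3 and 4), chr5:179154177-179154830 (ADAMTS2, exons 7 and 8) and chr5:33649682-33658200 (ADAMTS12, exons 7 and 8), all on the minus strand. The same held for the families as a whole: each of the 23 MMP stretches lay within a single exon, exon 5 in 20 of them, and each of the 18 ADAMTS stretches crossed a splice junction. MMP2 shared 27 of 33 bases with MMP14, 24 with MMP9, 21 with MMP28 and 16 with ADAMTS4. The middle of the residues between the second and the third histidine was glycine in most members and asparagine in 4, the proteoglycan-cutting ADAMTS1, ADAMTS4, ADAMTS9 and ADAMTS15. Of the other proteoglycan-cutting members, ADAMTS5 and ADAMTS20 held glycine and ADAMTS8 had no match. The search allowed no other residue at this position.

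The corresponding part of a TIMP is its amino end, whose first cysteine sits on the zinc of the blocked protease. The first 27 bases that code for the mature protein are shown for the 3 TIMPs that were expressed, with the codons of its first cysteine pair in capitals.

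TIMP1: TGCaccTGTgtcccaccccacccacag

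TIMP2: TGCagcTGCtccccggtgcacccgcaa

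TIMP3: TGCacaTGCtcgcccagccacccccag

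They lie at chrX:47583485-47583511 (TIMP1, plus strand), chr17:78924984-78925010 (TIMP2, minus strand) and chr22:32802071-32802097 (TIMP3, plus strand). TIMP3 shared 18 of 27 bases with TIMP1 and 18 with TIMP2.

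Levels are given in FPKM, which scale the fragments of a gene to its transcript length and to the mapped fragments of a library, so that levels can be set side by side between genes. The FPKM of all genes summed to between 570844 and 612614 in a library, and between 14183 and 14372 genes reached 1 FPKM. Absolute depth is unknown. Relative depth, read from the steps between low values, ranged from 75.7% to 100% of the deepest library, with a weak estimate for DMSO replicate 1. Mitochondrial genes took 5.88% and 6.64% of the FPKM in both replicates numbered 1 and 9.92% and 10.2% in both replicates numbered 2. All of 8 endothelial markers were detected, as were the markers of other cell types given below. The summed level of the 8 was 1714 and 1535 FPKM in the DMSO libraries and 1562 and 1431 FPKM in the SB libraries.

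Of the 47 members, 23 had a mean of at least 1 FPKM in a group and were tested: 10 MMPs, 10 ADAMTSs and 3 TIMPs. Expression was concentrated in few of them. MMP14, the membrane-bound enzyme that activates the proenzyme of MMP2, was the most abundant protease, with 439.7 and 359.6 FPKM in the DMSO libraries and 361 and 296 FPKM in the SB libraries, and it held between 61.9% and 69.4% of the summed MMP level. TIMP1 and TIMP3 were the most abundant inhibitors. The plot of levels by library shows the 23 tested members.

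**Figure D1:**
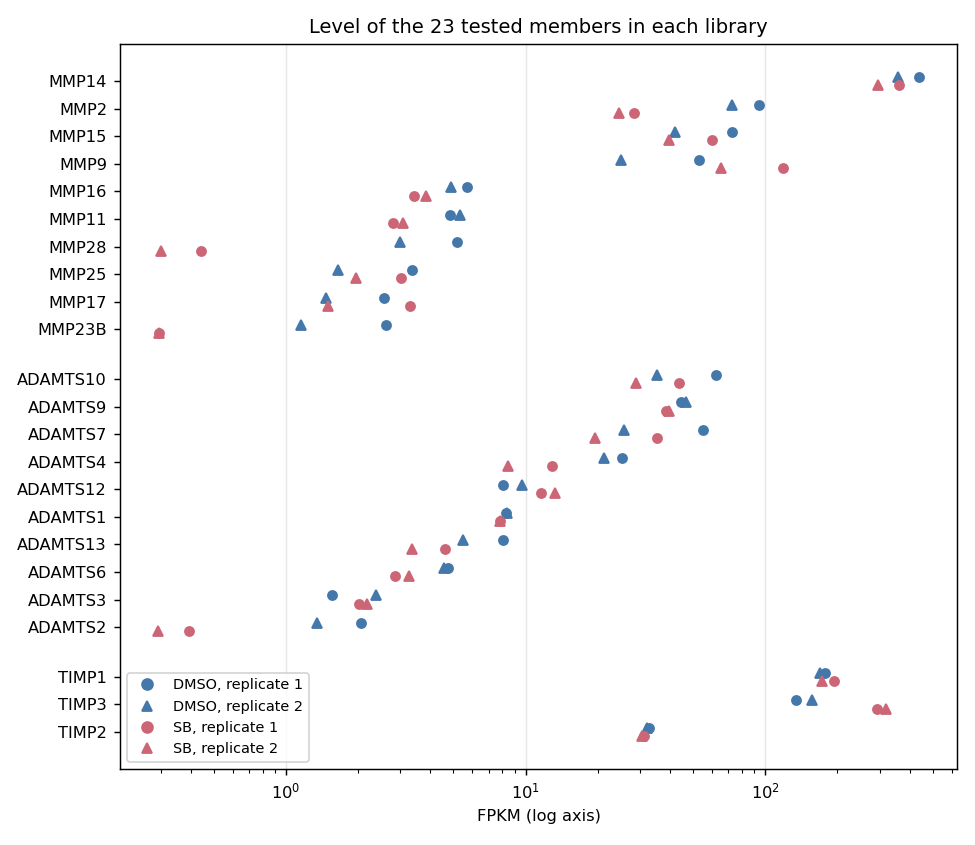
Level of each tested member in FPKM (log axis) in the 4 libraries; circles are replicate 1, triangles replicate 2, blue DMSO and red SB. MMP14 lies farthest to the right among the proteases, the SB libraries of MMP28, MMP23B and ADAMTS2 lie below 1 FPKM, and those of TIMP3 and MMP9 lie to the right of both DMSO libraries.

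Groups were compared gene by gene with limma on log2(FPKM + 1), on which all differences below are given as SB minus DMSO. None of the 23 members had an adjusted p under 0.05, against 0.134% of the 14909 genes tested (0.0268% higher and 0.107% lower in SB). With the replicate number as a block, 9 members passed, as did 10.5% of all genes. The labels do not say that the numbers mark a shared culture or day. The counts that follow are without the block. At an unadjusted p under 0.05, 9 members passed, 7 lower and 2 higher in SB, where 9.96% of all genes did (5.16% lower and 4.8% higher). A difference of at least 1 in size was found for 6 members, 4 lower (MMP28, MMP2, MMP23B and ADAMTS4) and 2 higher (MMP9 and TIMP3), against 3.72% of all genes (2.16% lower and 1.56% higher). The groups did not overlap for 15 members, 12 lower and 3 higher in SB, against 37.5% of all genes (16% lower and 21.5% higher). SB was lower in 16 members, against 43.8% of all genes, and these 16 were lower within both replicate numbers, against 30.6% of all genes. In both numbers 5 members were higher, against 40.9% of all genes. MMP28, MMP23B and ADAMTS2 passed the filter through the DMSO group alone and so had to be lower in SB. The 20 members above the filter in both groups had 13 lower, of which 9 were without overlap, 4 were lower at an unadjusted p under 0.05 and 2 were lower by at least 1. Higher among these 20 were 3 without overlap and 2 by either of the other limits. Their median difference was -0.20, where the 23 had -0.28 and all genes had 0.04.

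**Figure D2:**
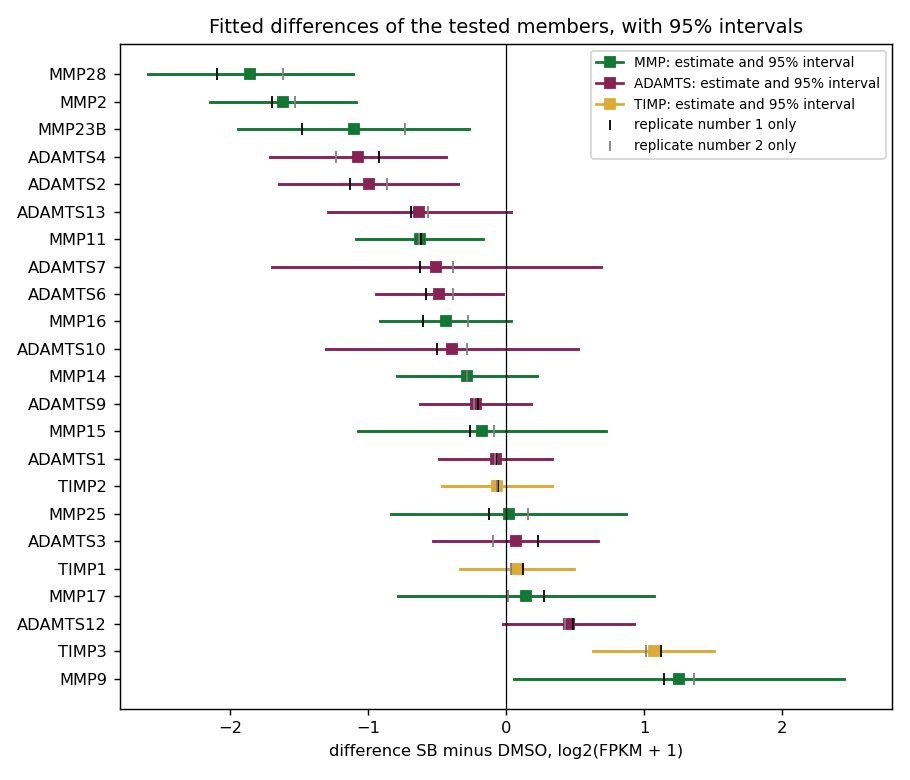
Fitted difference SB minus DMSO on log2(FPKM + 1) for the 23 tested members (squares) with 95% confidence intervals (bars); ticks give the difference within replicate number 1 (black) and 2 (grey). The intervals of MMP28, MMP2, MMP23B, ADAMTS4, ADAMTS2, MMP11 and ADAMTS6 lie below 0 and those of TIMP3 and MMP9 above 0, without adjustment for the number of genes tested. MMP28, MMP23B and ADAMTS2 passed the filter through the DMSO group alone.

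The 2 gelatinases, which cut denatured collagen and the type IV collagen of basement membranes, lay in opposite directions. MMP2, gelatinase A, is typically made by mesenchymal and endothelial cells. It was measured at 93.8 and 72.5 FPKM in DMSO replicates 1 and 2 and at 28.3 and 24.4 FPKM in SB replicates 1 and 2. Both SB libraries were below both DMSO libraries, with means of 83.2 ± 15.1 and 26.3 ± 2.72 FPKM (SD, n = 2). The difference was -1.61 (SE 0.20, 95% confidence interval -2.14 to -1.09), with an adjusted p of 0.0969 in limma, and it was -1.70 within number 1 and -1.53 within number 2. Its gene spans chr16:55389700-55506691.

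MMP9, gelatinase B, is a product of myeloid cells and is known for the release of Kit ligand in the marrow. Its level was 52.9 and 24.9 FPKM in the DMSO libraries and 118 and 65.6 FPKM in the SB libraries (chr20:46008908-46016561). Both SB libraries were above both DMSO libraries, but replicate 1 exceeded replicate 2 within each group. The difference was 1.26 (SE 0.46, 95% confidence interval 0.06 to 2.45, limma adjusted p 0.481), with 1.15 and 1.36 within numbers 1 and 2. On the plain scale the ratio of the means was 2.36. An antisense gene, SLC12A5-AS1, overlaps 18.4% of the exon bases of MMP9 and stood between 1.02 and 2.31 FPKM. No source says whether the counting used strand, so reads of the overlap cannot be assigned between them.

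The balance within the pair was therefore computed in each library, with no test. The ratio of MMP9 to MMP2 in FPKM was 0.564 and 0.343 in the DMSO libraries and 4.19 and 2.69 in the SB libraries. As a share of the summed MMP level, MMP2 held 13.7% and 14.01% in DMSO and 4.85% and 5.58% in SB, and MMP9 held 7.73% and 4.81% in DMSO and 20.3% and 15.0% in SB. In all 4 libraries the gelatinase with the larger share was MMP2 under DMSO and MMP9 under SB. The summed level itself, 685 and 518 FPKM in DMSO and 583 and 438 FPKM in SB, overlapped between the groups.

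**Figure D3:**
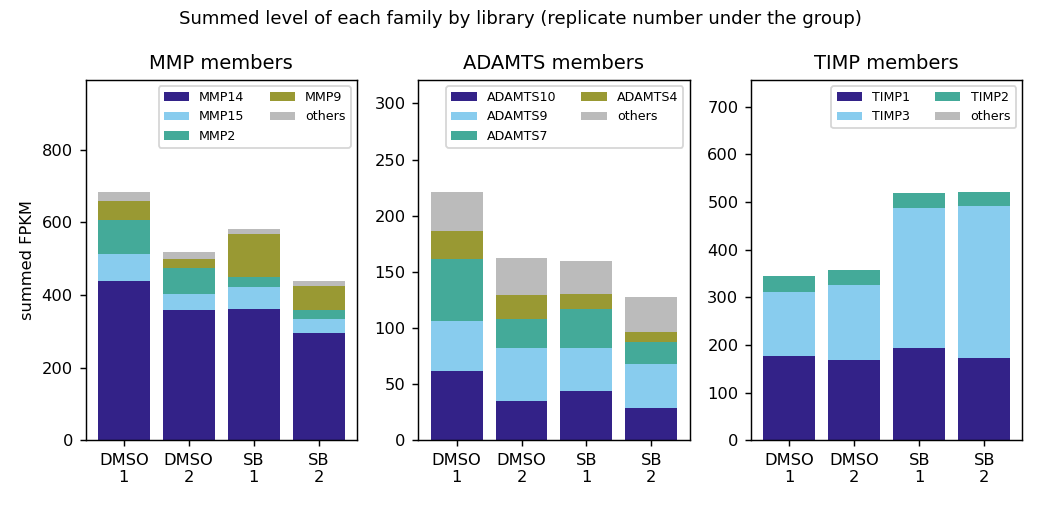
Summed FPKM of the MMP, ADAMTS and TIMP members in each library, stacked by the most abundant members. MMP14 makes up most of the MMP bars in all 4 libraries, while the TIMP bars stand at 345 and 358 FPKM in DMSO and at 518 and 522 FPKM in SB, with TIMP3 as the segment that differs.

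Markers of other cell types differed between the same libraries. None of the 9 mesenchymal markers was at 0 in all libraries. Their summed level was 369 and 322 FPKM in the DMSO libraries and 179 and 175 FPKM in the SB libraries. All 8 tested markers were lower in SB, against 43.8% of all genes. Among them, PRRX1 passed the filter through the DMSO group alone and so had to be lower. The 8 myeloid markers, none of them at 0 in all libraries, summed to 76.2 and 83.0 FPKM in DMSO and 190 and 203 FPKM in SB. All 5 tested were higher within both replicate numbers, against 40.9% of all genes. MMP2 thus lay on the side of the mesenchymal list and MMP9 on that of the myeloid list. The study describes collection by CD31, which mesenchymal cells in general lack, and gives no purity for these libraries. The part of these cells in either difference was not tested, and in bulk RNA fewer cells of a type cannot be told apart from less RNA per cell. The hematopoietic list summed to 372 and 368 FPKM in DMSO and to 547 and 511 FPKM in SB, and the endoderm and liver list to 282 and 319 FPKM in DMSO and 27.9 and 31.5 FPKM in SB. The epithelial list (255 and 251 FPKM against 116 and 124 FPKM) and the muscle list (115 and 96.4 FPKM against 50.3 and 47.2 FPKM) were lower in SB as well, and the pluripotency list stood at 70.6 and 90.6 FPKM against 93.8 and 115 FPKM.

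The transmembrane MT-MMPs, which work at the cell surface, had differences smaller in size than those of the gelatinases. MMP14 had a difference of -0.28 (95% confidence interval -0.79 to 0.23, limma adjusted p 0.762), and its groups overlapped, since DMSO replicate 2 was just below SB replicate 1. Without DMSO replicate 1 the difference was -0.14, and without DMSO replicate 2 it was -0.43. MMP15 was at 72.3 and 42.1 FPKM in DMSO and at 60.2 and 39.5 FPKM in SB, so that the replicate number separated its libraries more widely than the treatment did. MMP16 was at 5.69 and 4.86 FPKM in DMSO and at 3.41 and 3.85 FPKM in SB, a difference of -0.44 without overlap (limma adjusted p 0.548). MMP24 stayed below the filter, with a highest value of 0.80 FPKM. MMP24OS, on the other strand at 39.4 to 45.8 FPKM, overlaps 18.1% of the exon bases of MMP24. The GPI-anchored MMP17 had 2.56 and 1.48 FPKM in DMSO and 3.30 and 1.498 FPKM in SB, and MMP25 had 3.37 and 1.65 FPKM in DMSO and 3.02 and 1.96 FPKM in SB. Both overlapped between the groups, with differences of 0.14 and 0.02. An antisense gene at 11.8 to 15.1 FPKM, MMP25-AS1, covers 35.2% of the exon bases of MMP25, so that its level is uncertain.

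Among the remaining MMPs, MMP28 and MMP23B were low genes that passed the filter through the DMSO group alone. Both therefore had to be lower in SB. MMP28, or epilysin, is a secreted MMP of epithelia and macrophages, at chr17:35756249-35795707. It stood at 5.16 and 2.98 FPKM in DMSO and at 0.444 and 0.301 FPKM in SB. The DMSO mean was 10.9 times the SB mean on the plain scale, while the fitted difference was -1.85 (SE 0.29, 95% confidence interval -2.60 to -1.11, limma adjusted p 0.144). The pseudocount of 1 compresses such low values, and with 0.1 in its place the difference was -3.11. MMP23B, a membrane-bound MMP with a cysteine-rich end in place of the usual hemopexin domain, stood at 2.62 and 1.15 FPKM in DMSO and at 0.295 and 0.296 FPKM in SB. Its difference was -1.11 (limma adjusted p 0.369), or -2.22 with a pseudocount of 0.1. MMP23B has a near-identical copy, the pseudogene MMP23A, listed at 0.0583 FPKM in DMSO replicate 2 and at 0 in the other libraries. Reads could be split between the copies. MMP11, stromelysin 3, a product of stromal cells, was at 4.84 and 5.32 FPKM in DMSO and at 2.81 and 3.08 FPKM in SB, a difference of -0.62 with both SB libraries lower (limma adjusted p 0.354).

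Of the tested ADAMTS members, 8 of 10 were lower in SB, with a median difference of -0.44, against 43.8% of all genes. Without ADAMTS2, which had to be lower, it was 7 of 9 with a median of -0.39. The proteoglycanases cut versican and aggrecan. ADAMTS4, an aggrecanase, was at 25.1 and 21.3 FPKM with DMSO and at 12.8 and 8.48 FPKM with SB (chr1:161184308-161199056). Its libraries did not overlap, and the difference was -1.08 (SE 0.25, 95% confidence interval -1.71 to -0.44, limma adjusted p 0.264). ADAMTS9, which cuts versican in developing vessels and heart, was at 44.4 and 46.8 FPKM in DMSO and at 38.4 and 39.6 FPKM in SB, a difference of -0.22 (95% confidence interval -0.62 to 0.18). ADAMTS1, at 8.27 and 8.32 FPKM in DMSO and at 7.81 and 7.82 FPKM in SB, differed by -0.08 (95% confidence interval -0.49 to 0.33). Within this class the difference of ADAMTS4 was thus the most negative of the 3 tested, and all 3 were without overlap, where 16% of all genes were lower in that way. Below the filter, the highest values were 0.264 FPKM for ADAMTS15, 0.0690 FPKM for ADAMTS20, 0.0442 FPKM for ADAMTS8 and 0.00877 FPKM for ADAMTS5.

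The procollagen N-propeptidases trim the amino ends of fibrillar procollagens so that fibrils can form. ADAMTS2 was at 2.05 and 1.34 FPKM in DMSO and at 0.393 and 0.292 FPKM in SB, a difference of -0.995 (SE 0.25, limma adjusted p 0.301) or -2.004 with a pseudocount of 0.1. ADAMTS3, which processes VEGFC, a lymphatic growth factor, was at 1.56 and 2.38 FPKM in DMSO and at 2.01 and 2.17 FPKM in SB. Its groups overlapped, with a difference of 0.07 (95% confidence interval -0.53 to 0.67). ADAMTS14 reached at most 0.215 FPKM.

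ADAMTS7 and ADAMTS12 are close relatives that cut cartilage oligomeric matrix protein, and their zinc-binding codons shared 27 of 33 bases. ADAMTS12 was at 8.05 and 9.64 FPKM in DMSO and at 11.6 and 13.3 FPKM in SB, higher in both SB libraries by 0.45 (95% confidence interval -0.02 to 0.93, limma adjusted p 0.522). Among the 10 tested ADAMTS members it alone had both SB libraries above both DMSO libraries. ADAMTS7 was at 54.9 and 25.8 FPKM in DMSO and at 35.2 and 19.5 FPKM in SB, and its groups overlapped. Its difference of -0.51 had a wide interval of -1.70 to 0.69.

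ADAMTS13, the liver-derived protease that cuts von Willebrand factor, was at 8.05 and 5.46 FPKM in DMSO and at 4.60 and 3.36 FPKM in SB, a difference of -0.63 (limma adjusted p 0.529), or -0.39 without DMSO replicate 1. The liver markers given above were lower in SB too. The study describes collection by CD31, which liver cells in general lack, and the part of such cells in this value was not tested. ADAMTS6 was at 4.76 and 4.55 FPKM in DMSO and at 2.84 and 3.26 FPKM in SB, a difference of -0.48 without overlap. ADAMTS10, which is known to act on fibrillin microfibrils, was at 62.2 and 35.4 FPKM in DMSO and at 43.6 and 28.9 FPKM in SB, with overlap and a difference of -0.39 (95% confidence interval -1.31 to 0.52).

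Of the 3 expressed inhibitors, TIMP3 alone had an interval that left out 0. TIMP3, which unlike the other TIMPs binds to the matrix and also blocks ADAM and ADAMTS enzymes, was at 134 and 157 FPKM with DMSO and at 293 and 318 FPKM with SB (chr22:32801701-32863043). Both SB libraries were above both DMSO libraries, with means of 146 ± 16.2 and 306 ± 17.9 FPKM (SD, n = 2) and a plain ratio of 2.10. The difference was 1.07 (SE 0.17, 95% confidence interval 0.63 to 1.51, limma adjusted p 0.149), and it was 1.12 and 1.01 within numbers 1 and 2. TIMP3 lies in an intron of SYN3 on the other strand, which stood at or below 0.777 FPKM. TIMP1, a secreted inhibitor also known as a growth factor for erythroid cells, was at 178 and 169 FPKM in DMSO and at 194 and 173 FPKM in SB, a difference of 0.08 (95% confidence interval -0.34 to 0.49). TIMP2, which with MMP14 takes part in the activation of MMP2, was at 32.7 and 32.0 FPKM in DMSO and at 31.2 and 30.5 FPKM in SB, a difference of -0.06 (95% confidence interval -0.46 to 0.33). TIMP4 was below the filter, with at most 0.186 FPKM. The share of TIMP3 in the summed TIMP level was 38.9% and 43.9% in DMSO and 56.6% and 61.0% in SB. No test between the TIMP genes was made.

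The 24 members below the filter included 6 that were listed at 0 in all 4 libraries, MMP8, MMP12, MMP13, MMP20, MMP26 and MMP27. Such a value can be a failed estimate and does not show that a gene was silent. ADAMTS19 reached 1.07 FPKM in DMSO replicate 1, and ADAMTS18 0.383 FPKM in the same library. MMP10, stromelysin 2, stood at 0.267 and 0.145 FPKM in DMSO and was listed at 0 in both SB libraries. The highest values of the others were 0.724 FPKM for MMP1, 0.244 FPKM for MMP19, 0.179 FPKM for ADAMTS17, 0.130 FPKM for MMP21, 0.0526 FPKM for ADAMTS16, 0.0484 FPKM for MMP7, and 0.0222 FPKM for MMP3. None of these was tested.

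Many of the members at or near 0 are neighbours. A cluster of 9 MMP genes, which holds the collagenases MMP1, MMP8 and MMP13 and the stromelysins MMP3 and MMP10, lies at chr11:102520508-102955734. None of the 9 was tested, the highest value among them was 0.724 FPKM, and 5 were listed at 0 throughout.

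Promoter sequence was then set beside these levels. The 250 bases before the start of the gene in RefSeq (GRCh38.p14), called the window here, were found for 27 members. That start can differ from the one in the deposited table. The windows of ADAMTS13 and MMP8, for example, lie inside the gene as placed there. Both strands were searched for GGGCGG, the box bound by SP1 and KLF factors, for TGANTCA, the AP-1 motif, for TATAAA, the TATA box, and for GTCTAGAC, a pair of SMAD boxes. GGGCGG was in 12 of the 13 tested members with a window and in 7 of the 14 below the filter. All 7 lay outside the cluster. Of the 9 cluster members only 5 had a window, and these held 0. It was in 42.6% of 35116 promoters. Members with little RNA outside the cluster thus held the box as well. TATAAA was in 1 of the 13 and in 6 of the 14, 4 of them in the cluster, against 10.7% of all promoters. TGANTCA was in 1 of the 13, ADAMTS12, and in 3 of the 14, all in the cluster, against 6.57% of all promoters. GTCTAGAC was in none of the 27, against 0.182% of all. MMP2, MMP9, MMP28 and ADAMTS4 were not among the 27, so no motif was searched for in their promoters. These letters describe the windows only. The windows of TIMP3 (chr22:32801455-32801704, plus strand) and MMP10 (chr11:102780629-102780878, minus strand) are shown as an abundant member and a cluster member, with the motifs found in capitals.

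TIMP3: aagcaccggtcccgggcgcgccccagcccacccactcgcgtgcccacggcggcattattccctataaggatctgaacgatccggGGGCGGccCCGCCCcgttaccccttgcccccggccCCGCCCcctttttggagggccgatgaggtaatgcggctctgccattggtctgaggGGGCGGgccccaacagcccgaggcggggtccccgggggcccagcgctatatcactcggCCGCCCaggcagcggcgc

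MMP10: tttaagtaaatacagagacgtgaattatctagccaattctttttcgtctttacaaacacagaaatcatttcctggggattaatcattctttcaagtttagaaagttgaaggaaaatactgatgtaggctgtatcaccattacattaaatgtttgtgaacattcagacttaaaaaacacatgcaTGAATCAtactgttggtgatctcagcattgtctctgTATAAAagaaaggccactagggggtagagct

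The window of TIMP3 holds 72.4% G and C bases and that of MMP10 34.4%.

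The libraries of the members also differed by replicate number. In 8 of the 23 the mean difference between the numbers exceeded that between the groups, against 57.7% of all genes tested. Replicate 1 was above replicate 2 in both groups for 14 members, against 35.6% of all genes. For 6 members, ADAMTS7, MMP9, ADAMTS10, MMP15, MMP17 and MMP25, replicate 1 exceeded replicate 2 by at least 0.5, as it did for 12.3% of all genes. Their longest transcripts held 62.4% to 68.7% G and C bases, with a median of 65.8%, where the other 17 had a median of 53.7% and a range of 36.4% to 71.3%, so that the ranges overlapped. Across the 23 members, which share the same 4 libraries, the difference between replicate numbers and the GC content had a Pearson's r of 0.748, and across 14293 genes it was 0.536. These are descriptions across genes, and a cause was not tested.

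**Figure D4:**
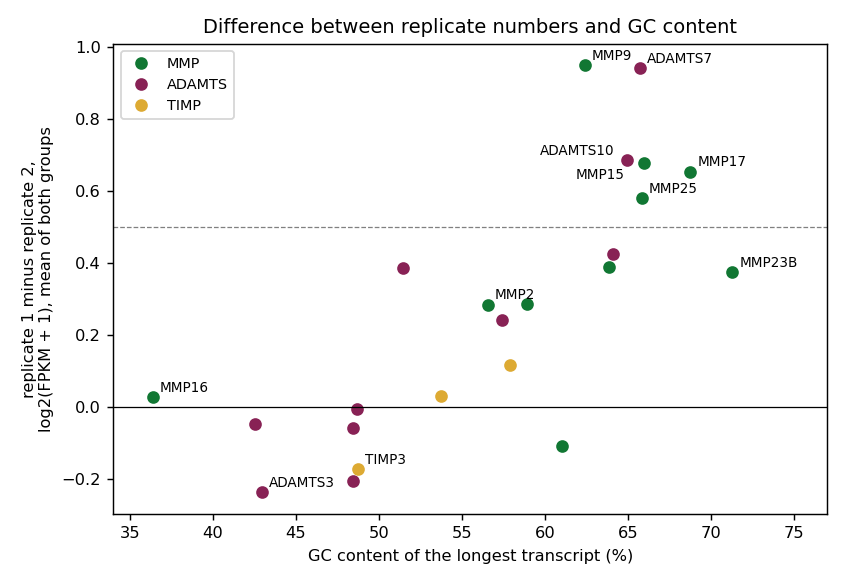
Difference replicate 1 minus replicate 2 on log2(FPKM + 1), averaged over both groups, against the GC content of the longest transcript (percent) for the 23 tested members. The 6 members above the dashed line at 0.5 have a GC content of 62.4% to 68.7%, and TIMP3 lies below 0.

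Other parts of the protease system were read from lists of inhibitors, activators, relatives, substrates and receptors. No gene of these 6 lists had an adjusted p under 0.05 in limma, and 19 did with the replicate number as a block. The substrate list had the most genes past an unadjusted p under 0.05, with 10 of the 13 tested lower and 0 higher, where 5.16% of all genes were lower at that limit, and its median difference was -0.77. FN1, or fibronectin, was at 236 and 291 FPKM in DMSO and at 56.6 and 64.4 FPKM in SB (difference -2.10, limma adjusted p 0.0646). COL1A1, a chain of type I collagen, was at 107 and 78.5 FPKM in DMSO and at 17.1 and 14.8 FPKM in SB (difference -2.46, limma adjusted p 0.0646). VCAN, the versican cut by ADAMTS proteoglycanases, and COL3A1 had differences of -1.51 and -1.03. COL1A1 and COL3A1 also stand on the mesenchymal marker list.

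TFPI2, an inhibitor of plasmin and of some MMPs, was at 16.3 and 16.6 FPKM in DMSO and at 4.99 and 4.43 FPKM in SB, a difference of -1.61 (limma adjusted p 0.0753). The other two inhibitors of its list, A2M and RECK, had differences of 0.24 and -0.12. Among the activators of MMP proenzymes and of plasminogen, 2 of 9 were lower and 1 higher at an unadjusted p under 0.05, against 5.16% and 4.8% of all genes. PLAT, the tissue plasminogen activator, had a difference of -1.002 (limma adjusted p 0.233), PLAU, the urokinase, one of -0.40, HPN one of -0.71, and PCSK6, a proprotein convertase, one of 0.87. None of the 9 ADAM sheddases tested passed an unadjusted p under 0.05, and their median difference was -0.02. The ADAMTS-like genes code for secreted relatives without a protease domain. Of the 5 tested, 1 was lower and 1 higher at an unadjusted p under 0.05, which 9.96% of all genes passed. ADAMTSL2 was the lower (2.82 and 1.68 FPKM in DMSO, 0.0739 and 0.0783 FPKM in SB, limma adjusted p 0.170). ADAMTSL2 passed the filter through the DMSO group alone and so had to be lower in SB. ADAMTSL4 was the higher (difference 0.53, limma adjusted p 0.429). Of the 4 receptors tested, LRP1, an endocytic receptor that clears MMPs and TIMPs, had a difference of -1.47 (limma adjusted p 0.167), and ITGB3, a chain of the integrin that can hold MMP2 on the cell surface, one of 0.83 (limma adjusted p 0.1996).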

How the data were processed

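A company sequenced the libraries and made the expression values. The authors deposited FPKM values, 1 column per library. The submitters' processing notes name BWA, Bowtie and RSEM and the build hg19, without roles. The loci in the table nevertheless lie on GRCh38: 95.5% of the identifiers have the same version in GENCODE release 29, and 99.8% of these have the same position there. Coordinates are counted from 1 on GRCh38. Strand use in counting is not given in the sources used here.

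Values were transformed to log2(FPKM + 1), and the 14909 genes with a mean of at least 1 FPKM in at least 1 group were fitted with limma 3.58.1 in R 4.3.3 (empirical Bayes with a trend, group as the only term, all 4 libraries). The Benjamini-Hochberg adjustment of the two-sided p-values ran over all genes tested, with a threshold of 0.05. For group comparisons in general the study names Student's test. It also used gene set enrichment analysis on its RNA-seq data and calls some transcription factors significantly lower with SB. No gene-by-gene test is named for these data. An exact permutation test of 2 against 2 libraries cannot give a p below 0.333, so none was used. The fit was checked on simulated data. Same-numbered libraries deviated together from their group means (Pearson's r 0.528 across 14909 genes). How often the fit errs on these 4 libraries was not tested.

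Relative depth was read from genes with 1 exon and 1 transcript of at least 1000 bases and values under 0.5 FPKM. Absolute depth is unknown, so no counting interval is given. Every member is reported, those past the filter with all values and the others with their highest value, and from each companion list at most 4 genes with the smallest unadjusted p are named. Members and lists were chosen with earlier results of these data known. Alternatives were a pseudocount of 0.1, no filter or a stricter filter, upper-quartile and quantile scaling, the replicate number as a block, and leaving out each library in turn.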

Additional observations from a re-analysis of the deposited data

How the results depend on the processing

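Outside the fit with a replicate block, no member passed the threshold under any alternative, and the lowest adjusted p was 0.0676 (limma). Of 221 member values under the alternatives, 201 kept their direction and side of the threshold, 11 changed sign and 9 passed the threshold, and 16 members never changed sign. The replicate numbers are 1 and 2 in both groups, but the labels do not say that they mark a shared culture or day. The deviations of the same-numbered libraries from their group means correlated across 14909 genes (Pearson's r 0.528). With the replicate block, 1564 genes passed the threshold (820 higher, 744 lower; 10.5% of those tested), 9 members did, and 19 companion genes did in place of 0. Lower in SB were MMP28 (-1.85, adjusted p 0.0160), MMP2 (-1.61, 0.00360), ADAMTS4 (-1.08, 0.0136), ADAMTS13 (-0.63, 0.0420), MMP11 (-0.62, 0.0488), ADAMTS7 (-0.51, 0.0411) and MMP14 (-0.28, 0.0352), and higher were TIMP3 (1.07, 0.00462) and MMP9 (1.26, 0.00628), all with limma. Without a filter, 0 genes passed in limma (2739 at an unadjusted p under 0.05) in place of 20, and the median difference of the 19 fitted ADAMTS members was -0.17 and that of the MMP members -0.038. Upper-quartile scaling turned MMP25 to -0.012 and gave 1 companion call, and quantile normalization gave 31 genes past the threshold (9 higher, 22 lower) and 1 companion call. Leaving out a library gave between 0 and 16 genes past the threshold, with 0 without DMSO replicate 1 and 7 without SB replicate 1. Between 3 and 7 members then had a difference of at least 1 in size, with 3 without DMSO replicate 1. The median difference lay between -0.65 and -0.17 for ADAMTS members, between -0.55 and -0.24 for MMP members and between -0.0051 and 0.16 for TIMP members, with the negative value without SB replicate 1. ADAMTS7 ranged from -1.04 to 0.026, ADAMTS10 from -0.79 to 0.0032, MMP15 from -0.56 to 0.21, MMP25 from -0.34 to 0.38, ADAMTS3 from -0.13 to 0.27, TIMP1 from -0.0051 to 0.16 and MMP17 from -0.25 to 0.54. MMP14 ranged from -0.43 to -0.14, ADAMTS13 from -0.87 to -0.39, MMP23B from -1.48 to -0.73, MMP9 from 0.73 to 1.78, TIMP3 from 0.96 to 1.18 and MMP2 from -1.80 to -1.43. The cause of these changes was not tested. With 2 libraries a group and an unknown depth, small differences and those of low genes could not be resolved.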
